A study of Mus musculus with 16 samples.

Results

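Axonemal dynein heavy chains are the large motor proteins that bend motile cilia and sperm flagella, and the peaks of 3 transcription factors at 10 of their genes in the embryonic mouse retina are described here. The genes were chosen by name, with earlier results of these data known: Dnah1, Dnah2, Dnah5, Dnah6, Dnah8, Dnah9, Dnah10, Dnah11, Dnah12 and Dnah17. They are 10 of the 21887 protein-coding genes of the RefSeq gene table used here. For each gene, peaks were taken whose midpoint lay in the gene body or within 10 kb of either end. A peak with its midpoint within 1 kb of an end is called a gene-end peak.

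The peaks came from CUT&RUN, in which an antibody directs micrococcal nuclease to cut out the DNA beside a bound protein. Retinas of outbred CD-1 mice at embryonic day 16 were pooled and made into single cells, and about 300000 cells went into an assay. The antibody libraries numbered 4 for Foxn3 (in 2 experiments), 2 for Foxn4 and 2 for Rfx3, beside 4, 2 and 2 control libraries with immunoglobulin G (IgG) from rabbit, mouse and rabbit. Digestion lasted 1 h, but about 12 h for Foxn4 and its mouse IgG, so the antibody and the protocol cannot be told apart for Foxn4. No treatment or mutation is named in the labels of any group, and all groups are of the same embryonic day. Whether the groups came from the same animals is not known here.

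The deposited data hold 1 peak list per antibody, with 2794 peaks for Foxn3, 2956 for Foxn4 and 3981 for Rfx3. Library depth is unknown from these lists, single libraries and IgG were not analysed here, and no value has a spread between replicates. No test was therefore run, and counts stand beside the same count over all genes. The score of a peak is the authors' own value. It is given here also as the percentage of peaks of the same list that scored lower. RNA was not measured, so a peak says nothing here about whether the gene was expressed.

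Dynein arms sit in rows along the microtubule doublets of the axoneme. Outer arms drive the beat and inner arms shape the bend, and each arm is built around heavy chains that hydrolyse ATP. Most cells of the retina carry a primary cilium, which has no dynein arms and does not beat. Rfx3 belongs to the regulatory factor X family, which binds an inverted repeat called the X-box in the promoters of many genes of motile and primary cilia. Foxn3 and Foxn4 are forkhead factors, and Foxn4 is known in the retina for its part in making amacrine and horizontal cells.

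The sequences before the start sites of Dnah9, Dnah10 and Dnah11 are shown as examples, and Foxn3 and Rfx3 peaks lay over part of each. Dnah6 also had both peaks at its start site, and its sequence is not shown. The printed stretches are the 250 bases upstream of the RefSeq start site, build GRCm38.p6 (the assembly of mm10), written 5′ to 3′ on the strand of the gene. Capitals mark matches to any of 5 sets of letters searched on both strands. The X-box was searched in a 14-letter form, the arm GTTNCC and its reverse complement with any 2 bases between them, and in a 13-letter form, the arm GTTNC and its reverse complement with any 3 bases between them. The other sets were GTTGCC (a single X-box arm), GACGC (a site of Foxn-type forkhead factors) and TGTTTAC (a general forkhead site). Matches of different sets may overlap.
Dnah9, chr11:66168552-66168801, minus strand: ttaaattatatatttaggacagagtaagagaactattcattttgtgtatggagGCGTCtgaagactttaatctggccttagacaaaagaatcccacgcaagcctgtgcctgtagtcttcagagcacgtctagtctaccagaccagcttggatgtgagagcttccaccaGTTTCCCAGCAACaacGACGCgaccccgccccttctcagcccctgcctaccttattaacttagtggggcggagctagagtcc
Dnah10, chr5:124724835-124725084, plus strand: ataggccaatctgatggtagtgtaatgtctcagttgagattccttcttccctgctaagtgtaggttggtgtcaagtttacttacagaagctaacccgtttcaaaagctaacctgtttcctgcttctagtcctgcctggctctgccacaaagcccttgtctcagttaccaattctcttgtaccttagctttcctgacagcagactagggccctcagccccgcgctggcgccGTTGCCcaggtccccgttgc
Dnah11, chr12:118199044-118199293, minus strand: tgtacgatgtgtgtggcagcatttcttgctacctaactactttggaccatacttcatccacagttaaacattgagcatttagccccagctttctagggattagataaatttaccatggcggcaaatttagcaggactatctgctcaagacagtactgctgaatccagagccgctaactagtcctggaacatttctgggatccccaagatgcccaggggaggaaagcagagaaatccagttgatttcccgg

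Foxn3 and Rfx3 had gene-end peaks at the same 5 genes: Dnah5, Dnah6, Dnah9, Dnah10 and Dnah11. Foxn4 had none at any of the 10. Over all protein-coding genes, 8.82% had a Foxn3 gene-end peak, 4.84% a Foxn4 and 10.6% an Rfx3 peak, and 7.56% had both Foxn3 and Rfx3. For Foxn4, 0 of 10 genes is near its share over all genes. At each of the 5 genes the peak lay at the 5′ end, and none of the 10 had a peak within 1 kb of its 3′ end. By role, the bound genes were 3 of 5 outer-arm genes (Dnah5, Dnah9, Dnah11) and 2 of 5 inner-arm genes (Dnah6, Dnah10). Of the axonemal heavy chain genes outside this choice, described below, 0 had a Foxn3 gene-end peak and 3 had an Rfx3 one.

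**Figure D1:**
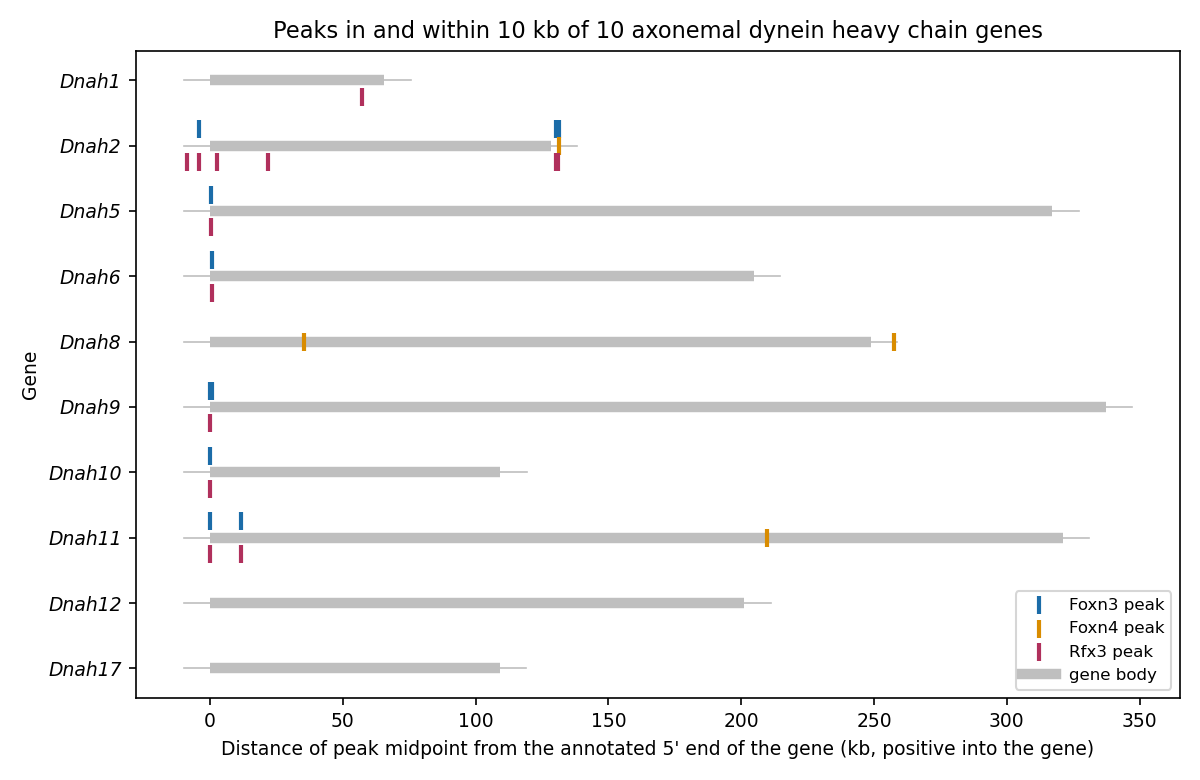
Each gene body is a grey bar from its annotated 5′ end (0 kb), with thin lines for the 10 kb on either side; coloured ticks are peak midpoints, blue for Foxn3 (above the bar), orange for Foxn4 (on it) and red for Rfx3 (below it). Blue and red ticks coincide at 0 kb in Dnah5, Dnah6, Dnah9, Dnah10 and Dnah11, while Dnah12 and Dnah17 carry no tick.

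A long window can hold more peaks than a short one, and these genes ran from 65.5 kb (Dnah1) to 337 kb (Dnah9). Counting the whole window, 6 of 10 genes had a Foxn3 peak, 3 a Foxn4 and 7 an Rfx3 peak. The shares over all protein-coding genes were 15.2%, 10.5% and 19%. Over the 3824 protein-coding genes at least as long as Dnah1 they were 19.6%, 19.8% and 26%, so the Foxn4 count was near the background of long genes. The gene-end shares of these 3824 genes were 9.75%, 4.99% and 12.1%. Only a lower limit of length was set for them, and they were not matched to the 10 genes, whose median length was 203 kb. Peak density in the windows was 4.46 per Mb for Foxn3, against 1.87 per Mb over the windows of all protein-coding genes. It was 5.80 against 2.60 per Mb for Rfx3 and 1.78 against 1.55 per Mb for Foxn4. These values include 3 Foxn3, 1 Foxn4 and 4 Rfx3 peaks beyond the ends of Dnah2, in or near Kdm6b and Efnb3. Dnah2 had no Foxn3 or Foxn4 peak in its body.

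Of the outer-arm genes, Dnah9 and Dnah11 encode chains of the same kind, used at different positions along airway cilia, and loss of Dnah11 disturbs left-right asymmetry in mice. Dnah9 lies on chromosome 11 at 65831324 to 66168581, minus strand. Its main Foxn3 peak, from 66168375 to 66168773, scored 259, higher than 96.8% of the list. The Rfx3 peak there, at 66168392 to 66168766, scored 346, higher than 89.2% of its list. Their midpoints lay 5 bp apart, and both were within 7 bp of the annotated 5′ end. A second, weak Foxn3 peak at 66167678 to 66168295 scored 15.9, higher than 16.2% of the list, and overlapped no Rfx3 peak. The noncoding gene Gm12296 also has an end within 1 kb, so the peaks of this locus are shared with it.

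Dnah11 lies on chromosome 12 at 117877982 to 118199043, minus strand. Foxn3 covered 118198863 to 118199118 at its 5′ end, with a score of 81.3, higher than 82.1% of its list. The Rfx3 peak at 118198878 to 118199107 scored 112, higher than 64.2% of its list, and the midpoints lay 2 bp apart. Only 75 of the 250 upstream bases printed above lay under the Foxn3 peak and 64 under the Rfx3 peak, since both midpoints fell about 50 bp inside the gene (52.5 and 50.5 bp). No other gene has an end within 1 kb. A second pair lay 11.7 kb inside the gene for Foxn3 (118187090 to 118187528) and 11.6 kb for Rfx3 (118187169 to 118187636). It was weak in both lists, higher than 43.8% of Foxn3 and 6.48% of Rfx3 peaks. A lone Foxn4 peak lay 209.5 kb from the 5′ end, at 117989370 to 117989638, and scored higher than 29.3% of its list.

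Dnah5, whose human counterpart is one of the genes most often mutated in primary ciliary dyskinesia, lies on chromosome 15 at 28154854 to 28472045. Its Foxn3 peak at 28154856 to 28155127 scored 55.1, higher than 72.7% of the list. The Rfx3 peak at 28154706 to 28155260 scored 128, higher than 68% of its list, with the midpoints 8.5 bp apart. Both sat at the far 5′ end of the gene. The start site in the RefSeq promoter table is another one, 48.9 kb further in, and no list had a peak within 1 kb of it. Sequence of the bound end was not used here. If only start sites of that table are counted, 4 of the 10 genes remain bound by Foxn3 and 4 by Rfx3, against 9.67% and 11.6% of 17492 protein-coding genes in the table. For Foxn4 the count was 0, against 5.29%.

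The outer-arm genes known for sperm flagella, Dnah8 and Dnah17, showed no gene-end peak. Dnah8 (chromosome 17, 30626935 to 30875762) had Foxn4 peaks only. One lay 35.5 kb inside the gene, at 30662324 to 30662581, with 44.1% of Foxn4 peaks scoring lower. The other lay 8.85 kb beyond the 3′ end, at 30884374 to 30884856, and only 0.71% of Foxn4 peaks scored lower. Dnah17 (chromosome 11, 118021723 to 118130719) had no peak of any list in its window, and the nearest Rfx3 peak lay 52.3 kb outside the gene.

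Among the inner-arm genes, Dnah6 had the highest-ranking peaks of all 10 genes in both the Foxn3 and the Rfx3 list. The gene lies on chromosome 6 at 73017603 to 73222227. Its Foxn3 peak, 73221551 to 73221886, scored 285, higher than 97.5% of its list. Its Rfx3 peak, 73221274 to 73221984, scored 569, higher than 94.9%. The Rfx3 midpoint fell 2 bp from the start site of the promoter table, and the Foxn3 midpoint at -87.5 bp from it, on the upstream side. No other gene has an end within 1 kb.

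Dnah10 and Dnah2 encode the heavy chains of the double-headed inner arm. Dnah10 lies on chromosome 5 at 124725085 to 124834308, plus strand. Foxn3 covered 124724838 to 124725234, with a score of 134, higher than 90.8% of its list. The Rfx3 peak spanned 124724837 to 124725234, the same stretch apart from 1 bp, and scored 174, higher than 76.3% of its list. Atp6v0a2, a subunit gene of the vacuolar proton pump, ends 581 bp from the Foxn3 midpoint. The midpoints of both peaks lie between the 2 genes, and both peaks reach across the start of Dnah10 into its body.

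Dnah2 (chromosome 11, 69420807 to 69549108) had 3 Foxn3, 1 Foxn4 and 6 Rfx3 peaks in its window, the most of the 10 genes, and none within 1 kb of an end. Most of them belong to other genes by position. Beyond the 3′ end lay 2 Foxn3 peaks (69417524 to 69418231 and 69418779 to 69419191), the Foxn4 peak (69417423 to 69417817) and 2 Rfx3 peaks (69417353 to 69418515 and 69418743 to 69419325). All had their midpoints inside Kdm6b, a histone demethylase gene, and inside the predicted gene Gm51903. The first of these sites was the only place in the 10 windows with peaks of all 3 lists. Beyond the 5′ end, a Foxn3 peak (69553034 to 69553286) and an Rfx3 peak (69552903 to 69553488, higher than 91.8% of its list) lay within 1 kb of an end of Efnb3, which encodes an ephrin. A further Rfx3 peak (69557458 to 69558010) lay inside Efnb3. Inside Dnah2 itself there were 2 Rfx3 peaks without Foxn3. One lay 2.39 kb from the 5′ end (69545970 to 69547462, 1493 bp wide, higher than 69.2% of its list) and the other 21.7 kb from it (69527070 to 69527742, higher than 8.79%).

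Dnah1, an inner-arm gene needed for the sperm flagellum, lies on chromosome 14 at 31260375 to 31325891. Its window held a single Rfx3 peak at 31268346 to 31268854, 57.3 kb from the 5′ end, with 36.7% of Rfx3 peaks scoring lower. That peak lay inside the noncoding gene Gm35823, within 1 kb of an end of it. Dnah12 (chromosome 14, 26691554 to 26892719), another inner-arm gene, had no peak of any list in its window, and its nearest Rfx3 peak was 1141 kb away. Of all protein-coding genes at least as long as Dnah1, the shortest of the 10, 63.4% had no peak of any list in such a window. Exon positions were not used here, and no peak is placed in an exon or an intron.

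In all, the 10 windows held 10 Foxn3 peaks (6 at gene ends), 4 Foxn4 peaks (none) and 13 Rfx3 peaks (5). The gene-end peaks farthest from an end had midpoints 598 bp (Rfx3, Dnah6) and 594.5 bp (Foxn3, Dnah9) away, and the next peak out, the Rfx3 peak beyond Dnah2, was 1773 bp away. At the outer limit, the Foxn4 peak 8.85 kb beyond Dnah8 was counted, and the nearest left out was a Foxn4 peak 14.2 kb from the same gene.

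Ranked within their lists, the main gene-end peaks fell in nearly the same order for both factors. For Foxn3 the order was Dnah6, Dnah9, Dnah10, Dnah11 and Dnah5, and for Rfx3 it was Dnah6, Dnah9, Dnah10, Dnah5 and Dnah11. The 6 Foxn3 gene-end peaks, the weak one in Dnah9 included, had a median rank above 86.5% of their list, where the 1581 Foxn3 peaks at ends of any protein-coding gene had a median of 52.8%. For the 5 Rfx3 gene-end peaks the median was 76.3%, against 46.4% for 1941 such peaks. The 4 Foxn4 peaks ranked low, above 0.71% to 44.1% of their list; the highest, in Dnah8, had the median score of the list, which many peaks share. Peaks of the 10 windows were of ordinary width, with a median of 398 bp for Foxn3, where the list median was 384 bp. For Rfx3 the median was 555 bp beside 469 bp, and for Foxn4 332 bp beside 351 bp.

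**Figure D2:**
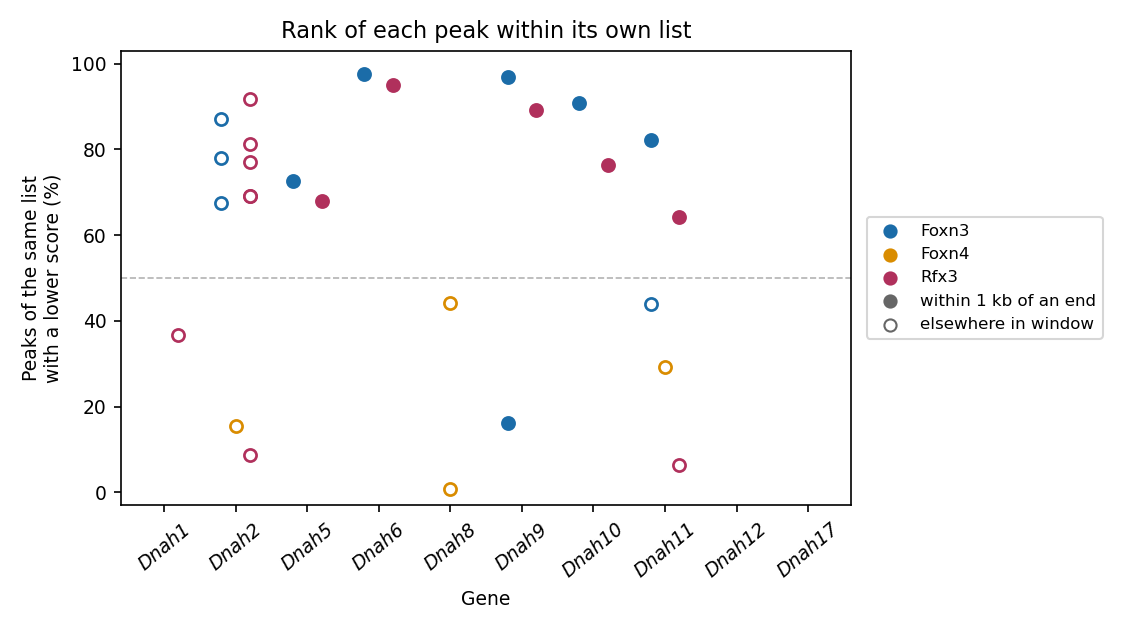
Each point is a peak in the window of the gene on the x axis, and the y axis gives the percentage of peaks of the same list that scored lower; filled points lie within 1 kb of a gene end, open points elsewhere, and the dashed line marks 50%. Filled Foxn3 and Rfx3 points lie between 64.2% and 97.5%, apart from the weak second Foxn3 peak of Dnah9 at 16.2%, and every Foxn4 point lies at 44.1% or lower.

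Foxn3 peaks in these windows mostly overlapped an Rfx3 peak, a share near that of the whole Foxn3 list. The pairs counted in the Dnah2 window lay inside Kdm6b or near an end of Efnb3. An Rfx3 peak met 9 of the 10 Foxn3 peaks by at least 1 bp, where it met 81.1% of the whole Foxn3 list. Of the 13 Rfx3 peaks, 9 overlapped Foxn3, where 56.4% of the Rfx3 list did. Foxn4 met 1 of the 10 Foxn3 and 1 of the 13 Rfx3 peaks, both at the Kdm6b site beyond Dnah2. Over the whole lists, 40.1% of Foxn3 peaks and 26.5% of Rfx3 peaks overlapped Foxn4. Counted from the Foxn4 list, 36% of its peaks met Rfx3 and 38% met Foxn3. At the 5 gene ends, Foxn3 and Rfx3 midpoints lay 0.5, 2, 5, 8.5 and 89.5 bp apart (Dnah10, Dnah11, Dnah9, Dnah5 and Dnah6), a median of 5 bp. The 4 pairs elsewhere lay 35.5 to 93.5 bp apart, and the median over all 2265 Foxn3 peaks that overlapped Rfx3 was 46.5 bp. That median covers pairs at any place and was not limited to gene ends. At ends of the intermediate, light chain and docking genes described below, pairs lay from 2.5 bp (Dnali1) to 246 bp (Dnai4) apart.

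**Figure D3:**
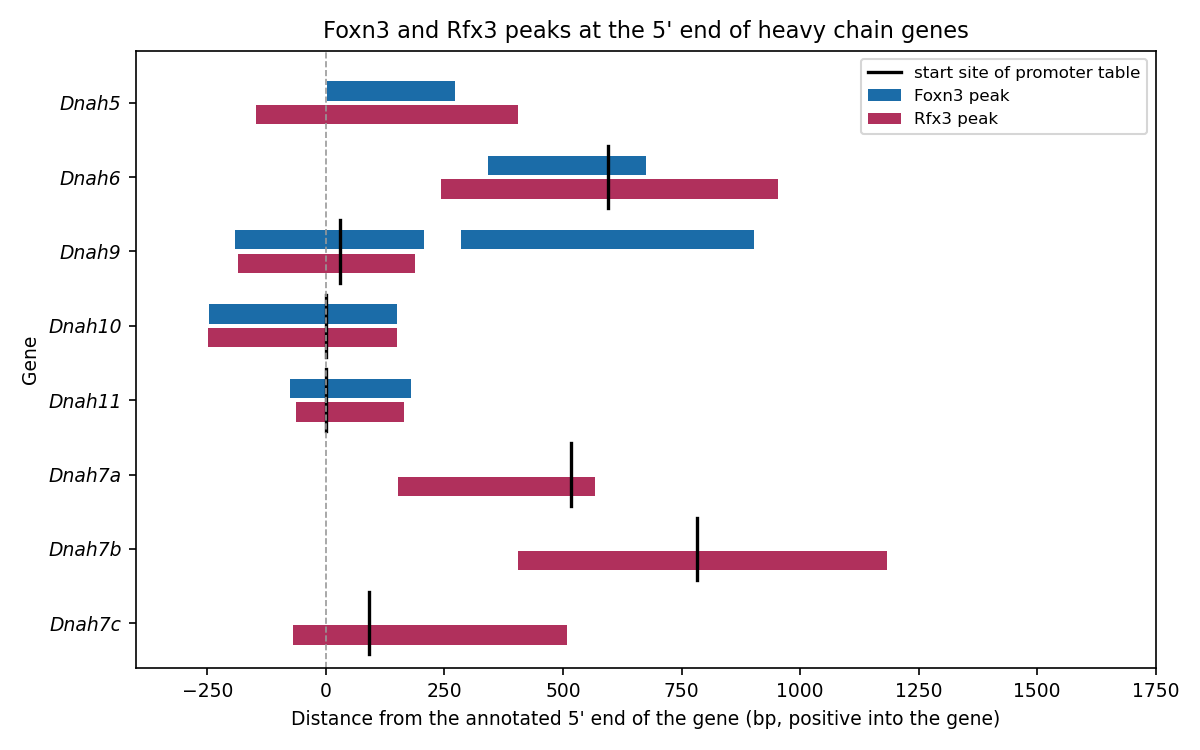
Bars span Foxn3 (blue) and Rfx3 (red) gene-end peaks along the distance in bp from the annotated 5′ end of the gene (dashed line at 0) and black lines are start sites of the promoter table. Both colours overlie each other at Dnah5, Dnah6, Dnah9, Dnah10 and Dnah11 and red stands alone at Dnah7a, Dnah7b and Dnah7c.

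The promoter table held a window of 250 bases before to 50 after the start site for all 10 genes. The 14-letter X-box was in none of them, and in 0.451% of the 32851 windows of the table. GACGC was in the windows of 4 genes (Dnah1, Dnah6, Dnah9 and Dnah10), close to the 36.3% of protein-coding genes that hold it, and Dnah1 had no peak there. TGTTTAC was in the window of Dnah17 alone, which had no peak, and in 3.65% of all windows. The single arm GTTGCC was in the window of Dnah10 alone and in 12.5% of all windows. It stood there 20 bases before the start site and again from 10 bases after it. The latter copy is followed by GACGC in GTTGCCacgGACGC (chr5:124725095-124725108, plus strand).

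The shorter, 13-letter X-box was searched only after the sequences had been seen, so it is a description chosen on these promoters. It occurred in 0.971% of all windows. Dnah9 is the only gene whose match is described here, and no count over the dynein genes is given. The match is the longest run of capitals printed above. It began 82 bases before the start site, and its centre lay 48 bp from the Rfx3 midpoint and 53 bp from the Foxn3 midpoint.

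The genes Dnah7a, Dnah7b and Dnah7c encode an inner-arm chain and are no members of the 10. They have similar promoters: over 113 bases near the start site, set side by side without gaps, they were 77.9% to 85.8% identical. The stretches were lined up on letters that all 3 share, chosen after the sequences were seen, so part of this identity was set in advance. The genes are not taken as separate cases, and how well reads can be placed among them was not tested. Each had an Rfx3 gene-end peak and no Foxn3 peak in its window. The Rfx3 peaks spanned 53706734 to 53707149 at Dnah7a, 46066477 to 46067254 at Dnah7b and 46425359 to 46425936 at Dnah7c. They scored higher than 33%, 40.9% and 26.5% of the list, below the Rfx3 peaks at the ends of the 10 genes. Foxn4 had a peak inside Dnah7b (46076066 to 46076182), 10.1 kb from the 5′ end, that ranked above 97.5% of its list, higher than any Foxn4 peak of the 10 genes. Another inside Dnah7c (46550896 to 46551290) ranked above 0.71%. Dnah3 and Dnah14, the remaining axonemal heavy chain genes, had no peak of any list in their windows. With these 5 genes included, 8 of 15 had an Rfx3 gene-end peak and 5 of 15 a Foxn3 one. The added Rfx3 genes are Dnah7a, Dnah7b and Dnah7c alone, which are not separate cases.

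The cytoplasmic heavy chains differ in use: Dync2h1 carries cargo back along the cilium, while Dync1h1 works throughout the cell. Dync2h1 had a Foxn3 peak (chromosome 9, 7176851 to 7177184, higher than 92.1% of the list) and an Rfx3 peak (7176763 to 7177259, higher than 86.5%). Their midpoints lay 40.5 and 47 bp inside the start site of the promoter table. The site is shared with Dcun1d5, and because the gene table places the end of Dync2h1 1.25 kb further out, it does not count as a gene-end peak of Dync2h1. Dync1h1 had only a Foxn3 peak 9.65 kb upstream, near a noncoding gene.

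The arms also hold intermediate and light chains and a docking complex. Of 13 such genes, Foxn3 had a gene-end peak at 9 (69.2%), Rfx3 at 10 (76.9%) and Foxn4 at 4 (30.8%). Intermediate chains, which sit at the base of the arm, were bound by Foxn3 and Rfx3 at Dnai1, Dnai3, Dnai4 and Dnai7. At Dnai2 both peaks lay at the start site of the promoter table, about 6 kb inside the annotated gene (5970.5 and 6088 bp), and were not counted. Light chains were bound by both at Dnal1, Dnali1 and Dynlrb2, and Dnal4 had no peak in its window. Of the docking complex genes, which fix the outer arm to the doublet, Odad3 and Odad4 had both factors, Odad1 had Rfx3 without Foxn3, and Odad2 had no peak in its window. Foxn4 gene-end peaks were at Dnai1, Dnai7, Odad1 and Odad3. The gene-end peaks of Odad3 ranked highest among these genes in each list, above 97.4% of Foxn3, 96.3% of Rfx3 and 86% of Foxn4 peaks. At Dnai7 they ranked above 91.5% of Foxn3, 95.4% of Rfx3 and 67.6% of Foxn4 peaks, and at Dynlrb2 above 94.8% of Foxn3 and 94.3% of Rfx3 peaks. Others were weak: the Foxn4 peaks of Dnai1 and Odad1 ranked above only 0.71% and 15.4% of their list. The lowest Rfx3 ranks were 26.5% at Odad1 and 33.9% at Dnali1. The lowest Foxn3 ranks were 2.43%, for a second peak at Dnai4, and 41.6% at Dnal1. Dnai1 shares its peaks with Fam219a, Dnai4 with Mier1, Dnai7 with Etfrf1 and Odad3 with Prkcsh. The difference between these genes and the 10 heavy chain genes was not tested.

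**Figure D4:**
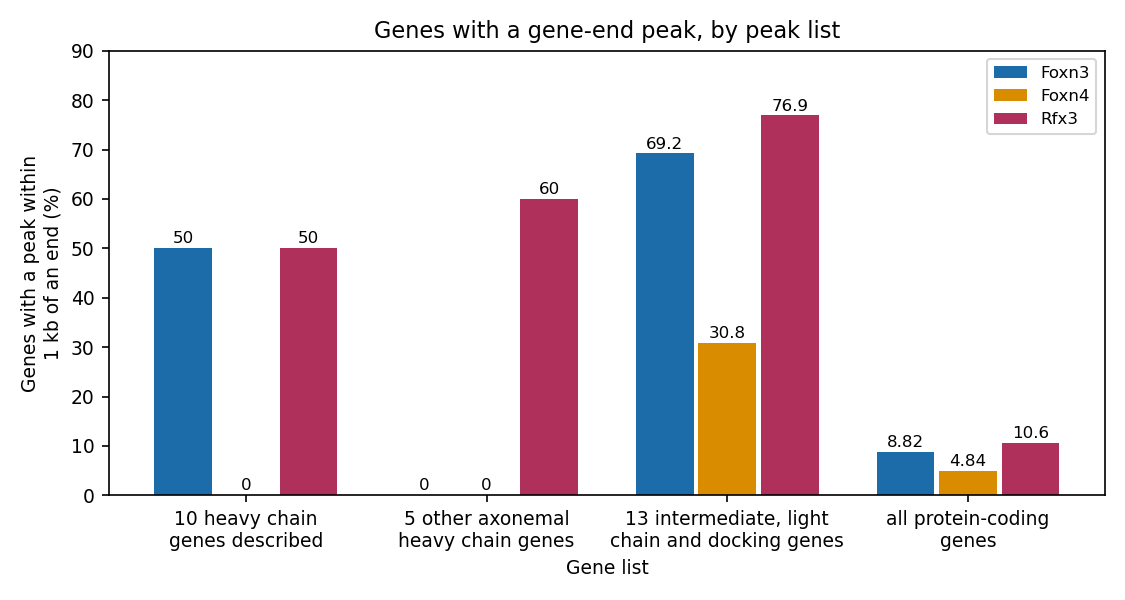
Bars give the percentage of genes with a peak midpoint within 1 kb of an end, for Foxn3 (blue), Foxn4 (orange) and Rfx3 (red), in 3 lists of axonemal dynein genes and over all protein-coding genes. Foxn3 and Rfx3 stand at 50.0% for the 10 heavy chain genes against 8.82% and 10.6% of all protein-coding genes. Foxn4 stands at 0 for both heavy chain lists against 4.84% of all protein-coding genes, and with so few genes 0 is near that share. The Rfx3 bar of the other heavy chain genes rests on the similar genes Dnah7a, Dnah7b and Dnah7c alone.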

How the data were processed

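CUT&RUN was run on pooled embryonic retinas with antibodies to Foxn3, Foxn4 and Rfx3 and with IgG. The authors deposited 1 peak list per antibody on mm10, per the file headers, each giving a position and a score per peak. The submitters' processing notes name cutadapt, Bowtie2, UMI-tools, bedtools and SEACR, without versions or settings. The peak threshold, the use of IgG, the pooling of libraries and the scaling of the score are not given in the sources used here. A peak missing from a list may therefore lie below its threshold, and scores rank peaks within a list only.

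Gene positions, start sites and promoter sequences came from RefSeq tables of GRCm38.p6. Coordinates count from 1. All dynein genes looked up (10, and lists of 5, 2 and 13) matched by symbol or synonym, and 26 had a promoter window. Peaks were placed by their midpoint with Python 3.11.15, numpy 2.4.6 and pandas 2.3.3, and the counting was checked on simulated peaks. A genome was not used here. Every one of the 10 genes is named, as are genes with an end within 1 kb of their peaks, the other heavy chain genes, and arm genes with a gene-end peak. Kdm6b, Gm51903, Dcun1d5, Dnai2, Dnal4, Odad2 and neighbours of arm genes fall outside that rule and were named after their values were seen. The genes and lists were chosen with earlier results of these data known. Matches of the 13-letter X-box at dynein genes other than Dnah9 are not reported here.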

Additional observations from a re-analysis of the deposited data

How the results depend on the processing

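Of 50 alternatives to 13 counts, 41 stayed within 1.5 times the main value. Those that did not are these. With the gene body alone, the 10 windows held 6 Foxn3, 2 Foxn4 and 8 Rfx3 peaks, in place of 10, 4 and 13. Within 5 kb of an end, 1 of the 10 genes had a Foxn4 peak, in place of 0. Without the peaks under the list's median score, Foxn4 had 1 peak at 1 gene, in place of 4 at 3. With all 15 axonemal heavy chain genes, an alternative chosen after seeing the data, 8 had an Rfx3 gene-end peak, in place of 5. Those added were Dnah7a, Dnah7b and Dnah7c. When shared peaks had to have midpoints within 100 bp, Foxn4 shared 0 with Rfx3 and Foxn3 shared 0 with Foxn4, in place of 1 and 1. The count of genes with Foxn3 or Rfx3 gene-end peaks stayed between 4 and 6 for the 10 genes under every other alternative. Leaving out a replicate was not possible, because the lists do not separate libraries, and for the same reason depth and IgG background put no interval on any count.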

Other observations

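The X-box letters were also set against the peaks over the promoter windows of all protein-coding genes, a description chosen after the dynein promoters had been seen. Of 91 windows with the 14-letter X-box, 74.7% overlapped an Rfx3 peak, 51.6% a Foxn3 peak and 2.2% a Foxn4 peak. Of the 21172 windows without it, 9.86%, 8.05% and 4.41% did. Of 200 windows with the 13-letter X-box, 41% overlapped an Rfx3 peak, 32% a Foxn3 peak and 7% a Foxn4 peak, against 9.84%, 8.01% and 4.37% of the windows without it. For GACGC, the Foxn-type letters, the shares were 16.8% for Rfx3, 14.2% for Foxn3 and 7.52% for Foxn4, against 6.81%, 5.26% and 2.83% of the windows without it. For TGTTTAC they were 6.73%, 6.1% and 2.03%, against 10.2%, 8.3% and 4.47%. Base composition differs between these letters and was not adjusted for.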
